A study of Mus musculus with 63 samples.

Results

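The subject here was a set of 9 genes that make or assemble the mucus of intestinal goblet cells, namely Muc2, Fcgbp, Clca1, Zg16, Tff3, Spink4, Retnlb, Agr2 and St3gal4. They were taken by their gene names from RNA-seq count tables that list 54752 gene identifiers, and all 9 were found once. The study asked what the Mediator kinases CDK8 and CDK19 do in the mouse small intestinal epithelium (strain C57BL/6 throughout). Organoids, which are epithelial cultures grown from crypts, and intestinal epithelial cells (IECs) collected from mice were sequenced, and 57 libraries in 19 groups of 3 were used. In these mice Cre recombinase is driven by the Villin promoter, active along the whole intestinal epithelium, and works only once tamoxifen or its metabolite 4-OHT is given.

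The organoids of the first set came from 5 lines, 1 per genotype, all exposed to 100 nM 4-OHT for 24 h and collected at 7 days. They were VillinCreERT2, C57BL/6, VillinCreERT2; Cdk8 fl/fl (CDK8KO here), Cdk8 fl/fl; Cdk19 ko/ko without Cre (CDK19KO) and VillinCreERT2; Cdk8 fl/fl; Cdk19 ko/ko (DKO). The time course used organoids of the last genotype given 4-OHT or 0.001% EtOH and collected at 3, 5, 7 and 10 days, so both arms carry Cdk19 ko/ko. The same genotype was collected at 10 days in Wnt3-conditioned medium (Wnt3-CM) after EtOH or 4-OHT, given for 24 h as in the other sets. A further line, VillinCreERT2; Cdk8 fl/fl; Cdk19 ko/D173A, carries a kinase-dead CDK19 allele over the deletion and was collected at 7 days after 24 h of EtOH or 4-OHT. The columns taken for it carry a line number and no genotype, and were assigned because no other organoid samples with those 2 treatments remained. IECs came from VillinCreERT2 and DKO mice 14 days after the last of 5 daily tamoxifen injections of 80 mg/kg. No line without floxed Cdk8 had an EtOH arm, so exposure to 4-OHT and loss of Cdk8 cannot be told apart in the comparisons of 4-OHT with EtOH.

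Goblet cells are secretory cells that release the gel covering the intestinal surface. MUC2 is the mucin that forms the gel, and it is folded and multimerised with the help of the endoplasmic reticulum protein AGR2 and then densely O-glycosylated. FCGBP, the protease CLCA1 and the lectin ZG16, which binds bacteria, are secreted with it and become parts of the mucus layer, while the trefoil peptide TFF3 and the small peptide SPINK4 leave the same cells. RETNLB (RELMβ) is a goblet cell product induced by infection and inflammation, and ST3GAL4 is a Golgi sialyltransferase that caps glycan chains and is also made outside goblet cells. The transcription factor ATOH1 commits progenitors to secretory fates, and SPDEF acts below it in goblet cell maturation.

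On GRCm38, in GENCODE release 21, Muc2 (ENSMUSG00000025515.15) lies on chromosome 7 from 141690340 to 141754693, plus strand, with an exon union of 7127 bases and a tag that marks its gene model as fragmented. Fcgbp (ENSMUSG00000047730.17) lies on the same chromosome and strand from 28071236 to 28120862, and Agr2 (ENSMUSG00000020581.11) on chromosome 12, plus strand, from 35992907 to 36004087. St3gal4 (ENSMUSG00000032038.7), on the minus strand of chromosome 9 from 35046576 to 35119268, shares 412 exon bases (14.1% of its exon union) with the opposite-strand gene 4930581F22Rik, which had 2.23 to 18.4 CPM over all libraries. Whether reads were counted by strand is not given in the sources used here, so reads in that overlap cannot be told apart. The other 8 genes overlap no exon of another gene. RefSeq promoter sequences (GRCm38.p6) were held for 4 of the 9 genes. The 250 bases before the RefSeq start are shown because these genes differ in how they moved below. The St3gal4 window lies inside the GENCODE gene, downstream of its 5' end at 35119268, and the bases before that end were not searched. The Agr2 window reaches past the GENCODE start at 35992907. Capitals mark E-boxes, the hexamer CANNTG (read on either strand, and bound by ATOH1 and many other factors), with N for any base.
Muc2 promoter (chr7:141690090-141690339, plus strand): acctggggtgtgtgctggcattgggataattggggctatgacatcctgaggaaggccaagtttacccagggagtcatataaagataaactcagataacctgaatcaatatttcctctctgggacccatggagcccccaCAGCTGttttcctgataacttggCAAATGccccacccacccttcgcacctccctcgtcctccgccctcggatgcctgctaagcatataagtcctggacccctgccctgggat
Fcgbp promoter (chr7:28070986-28071235, plus strand): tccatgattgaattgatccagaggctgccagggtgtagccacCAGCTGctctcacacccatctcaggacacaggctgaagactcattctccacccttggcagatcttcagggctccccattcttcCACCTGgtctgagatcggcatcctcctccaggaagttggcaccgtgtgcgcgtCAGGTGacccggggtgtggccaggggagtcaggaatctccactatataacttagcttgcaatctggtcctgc
Agr2 promoter (chr12:35992675-35992924, plus strand): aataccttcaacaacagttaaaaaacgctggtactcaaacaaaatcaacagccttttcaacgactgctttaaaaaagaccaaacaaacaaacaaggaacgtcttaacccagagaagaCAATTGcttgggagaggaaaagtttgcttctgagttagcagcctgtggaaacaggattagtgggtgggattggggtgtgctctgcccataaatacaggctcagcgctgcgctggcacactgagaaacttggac
St3gal4 promoter (chr9:35116865-35117114, minus strand): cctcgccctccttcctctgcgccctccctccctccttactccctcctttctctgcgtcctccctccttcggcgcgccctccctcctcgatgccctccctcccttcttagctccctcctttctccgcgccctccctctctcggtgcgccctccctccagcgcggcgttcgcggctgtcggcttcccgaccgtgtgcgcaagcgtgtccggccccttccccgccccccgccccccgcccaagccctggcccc
The windows held 2, 3, 1 and 0 E-boxes in that order, and 66.2% of 32851 RefSeq windows of the same length hold at least 1. The form CAGCTG, itself counted among the E-boxes, stood once in Muc2 and once in Fcgbp and in 13% of all windows. The CACCC element CCACCC, bound by KLF and SP factors, stood in Muc2 (2 matches), Fcgbp (1) and Agr2 (1) and in 28.1% of all windows. TATAAA stood in Muc2 and in 12.4% of all windows, TTTATNG in Agr2 and in 9.81%, and TGTTTNC in Muc2 and Agr2 and in 17.8%. All motifs were read on both strands, and the St3gal4 window held none of the 6. Its window was 72.8% G and C, against 53.2% in Muc2, 56.4% in Fcgbp, 44.4% in Agr2 and a mean of 53.2% over all windows. A match is a run of letters, not a shown binding site.

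Libraries held between 15485959 and 32909565 counted reads (median 19374952), and the 8 genes other than Retnlb were covered by 2239 to 383864 reads per group. The labels number the libraries of a group as replicates and do not say that organoid libraries came from separate cultures. The p-values therefore measure the spread between these libraries. Overlap of libraries between groups was looked at only for the mucus genes, Atoh1 and Spdef. The share of all genes without overlap was not counted, so a lack of overlap below is a description. Gene-level Cdk8 counts did not mark the deletion: organoids of the first set held 71.9 to 80.8 CPM in VillinCreERT2, 78 to 83.1 in CDK8KO and 65.1 to 67.2 in DKO. Nor did Cdk19 counts mark Cdk19 ko/ko, at 24.7 to 26.0 CPM in CDK19KO and 27.6 to 27.8 in DKO. The control lines held 27.2 to 29.1 (VillinCreERT2) and 28.7 to 34.5 CPM (C57BL/6). Time course libraries, all Cdk19 ko/ko, held 35.3 to 60.0 CPM of Cdk19. The labels were not checked by these counts. Not all lines came from mice of 1 sex, as read from X- and Y-linked RNA. The transcript Xist stood at 342 to 804 CPM in both control lines and at most 0.458 CPM in CDK8KO, CDK19KO and DKO, so genotype, line and sex cannot be told apart there. In DKO IECs, replicate 2 alone expressed the Y-linked gene Ddx3y (30.2 CPM). Fewer goblet cells and less RNA per goblet cell cannot be told apart in any of these bulk samples. Lists of 10 Paneth, 10 enterocyte, 8 tuft, 8 enteroendocrine and 8 stem cell genes were counted and their CPM summed in the same comparisons, and these values stand beside the mucus genes they moved with. Their part in the results was not tested, and unless named no listed gene was at 0 in all libraries of a group. The enteroendocrine list was low in the time course and Wnt3-CM libraries, where it summed to between 8.32 and 33.8 CPM and Neurod1, Tac1, Gip, Cck or Chga was at 0 in some groups.

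Levels are given in CPM, read counts scaled to TMM-normalised library size, and between genes as CPM per kilobase of exon union. Tff3 was the most abundant of the 9 per kilobase in VillinCreERT2 organoids, at 1417 ± 26.5 CPM per kilobase, followed by Spink4 (864 ± 59). Zg16 (278 ± 24.5), St3gal4 (264 ± 38.1) and Agr2 (221 ± 18.2) came next, where St3gal4 lay within the summed SDs of both its neighbours, Zg16 and Agr2. Fcgbp (142 ± 8.98), Clca1 (64.4 ± 6.25) and Muc2 (33 ± 3.62) were lower, and the Muc2 value rests on its fragmented gene model. In VillinCreERT2 IECs the order was led by Zg16 (1845 ± 227 CPM per kilobase) and Tff3 (1392 ± 205), and Fcgbp (661 ± 94.8), St3gal4 (610.2 ± 17.6), Clca1 (551 ± 111) and Spink4 (510.0 ± 9.87) stood above Agr2 (161 ± 20.3) and Muc2 (123 ± 11.1). From Fcgbp to Spink4 each gene lay within the summed SDs of the next. Retnlb had 0 reads in 9 of 17 organoid groups and at most 0.276 CPM in 16 of them, and 4.72, 3.91 and 2.25 CPM in VillinCreERT2 IECs.

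In CDK8KO organoids 3 mucus genes fell against VillinCreERT2 organoids, where a gene was called changed at an adjusted p under 0.05 over all genes tested (edgeR quasi-likelihood test, Benjamini-Hochberg) and a fold over 1.5. Of all 15125 genes tested 7.23% were called, and 3 of the 8 mucus genes tested. The gel-forming Muc2 stood at 255, 245 and 206 CPM in VillinCreERT2 and 154, 170.3 and 128 CPM in CDK8KO organoids, with no overlap (log2 fold change of -0.64, SE 0.12, adjusted p = 0.001). The lectin gene Zg16 (326, 384 and 339 against 219, 205 and 228 CPM; log2 fold change of -0.69, SE 0.09, adjusted p = 1.47e-05) and the trefoil gene Tff3 (711, 700.2 and 685 against 468.9, 445 and 459.5 CPM; log2 fold change of -0.61, SE 0.07, adjusted p = 1.69e-06) also fell. Fcgbp, Spink4 and Clca1 had log2 fold changes of -0.44, -0.43 and -0.41, below the fold required, and Agr2 and St3gal4 had -0.21 and -0.25. The median of the 8 was -0.43, against 0.02 over all genes tested, where values are log2 fold changes. Alongside, 5 of 10 enterocyte genes were called lower (median log2 fold change -0.53), with a summed level of 13412 to 16149.8 against 9525 to 10949.7 CPM. Of the Paneth genes 2 of 10 and of the stem genes 1 of 7 tested were called higher, and of the tuft genes 1 of 7 tested lower. The tuft gene Il25 was at 0 in CDK8KO.

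These 3 calls rested on the choice of control line. C57BL/6 organoids, which carry neither Cre nor a floxed allele and had the same 4-OHT, held 336, 402 and 461 CPM of Tff3, 181, 233 and 194 CPM of Zg16 and 163, 164 and 130.4 CPM of Clca1. These 3 genes were called lower than in VillinCreERT2 organoids (for Tff3, log2 fold change of -0.81, SE 0.07, adjusted p = 3.82e-09; -0.78 for Zg16 and -0.67 for Clca1), in a comparison where 26.4% of all genes were called, and Clca1 was not called without C57BL/6 replicate 3 (-0.57). Against the mean of both control lines no mucus gene passed both cutoffs in CDK8KO organoids in edgeR, where 1263 of all genes did. The log2 fold changes were -0.44 for Muc2 (adjusted p = 0.00462), -0.29 for Zg16 (adjusted p = 0.00708) and -0.21 for Tff3 (adjusted p = 0.016). The control lines differed in Paneth genes too, of which 7 of 10 listed were called higher (median log2 fold change 1.46) in C57BL/6 and 1 lower, and in enteroendocrine genes, with 6 of 8 higher and 2 lower. Muc2 also lost its call without VillinCreERT2 replicate 1 (-0.58) or CDK8KO replicate 3 (-0.53).

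CDK19KO organoids had no mucus gene past both cutoffs against C57BL/6 organoids, where 5.25% of all genes were called. Cdk19 itself stood at 24.7 to 26.0 CPM in CDK19KO and 28.7 to 34.5 CPM in C57BL/6. In edgeR 3 of the 8 had an unadjusted p under 0.05, and DESeq2 called 0. Tff3 stood at 336, 402 and 461 CPM in C57BL/6 and 291, 323 and 299 CPM in CDK19KO organoids (log2 fold change of -0.39, SE 0.08, adjusted p = 0.00073), which do not overlap. St3gal4 was at 730.3, 756 and 687 and 911, 997 and 882 CPM (log2 fold change of 0.36, SE 0.09, adjusted p = 0.0124), also without overlap. Against the mean of both control lines Tff3 was called lower (-0.80, adjusted p = 9.64e-09), where 801 of all genes were called. The remaining 6 lay between -0.12 for Spink4 and 0.27 for Muc2. Beside them 2 of 10 Paneth, 2 of 7 stem and 1 of 8 enteroendocrine genes were called lower.

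In DKO organoids the peptides Spink4 and Tff3 and the folding factor Agr2 fell, and Muc2, Fcgbp, Clca1 and Zg16 did not pass the fold required. Spink4 had 379.7, 425 and 431 CPM in VillinCreERT2 and 179, 203 and 154 CPM in DKO organoids, a 2.3-fold decrease (log2 fold change of -1.20, SE 0.08, adjusted p = 2.23e-11). Tff3 went from 711, 700.2 and 685 to 339, 333 and 311 CPM, 2.13-fold lower (log2 fold change of -1.09, SE 0.08, adjusted p = 4.41e-11). Agr2 moved from 285, 309 and 262 to 187, 197 and 184 CPM (log2 fold change of -0.59, SE 0.07, adjusted p = 5.48e-08). None of these 3 genes overlapped between the groups. In this comparison 19.4% of all genes were called, and 3 of the 8 mucus genes, whose median log2 fold change was -0.52 against 0.00 over all genes. Zg16 (-0.56), Fcgbp (-0.48), Clca1 (-0.40) and Muc2 (-0.33, adjusted p = 0.0317) made up the rest with St3gal4 (0.00). The transcription factor genes Atoh1 (23.1, 18.3 and 21.1 against 11.8, 12.2 and 11.8 CPM) and Spdef both fell, by 0.80 and 0.85 on the log2 scale. Other cell type genes moved in the same libraries: 8 of 10 Paneth genes were called lower (median log2 fold change -1.41), at 2932 to 3055 against 915 to 957 CPM in sum. Of the tuft genes 7 of 7 tested were called lower (median log2 fold change -2.68), at 23.2 to 26 against 3.93 to 5.53 CPM, with Il25 at 0 in DKO. Of the stem genes 6 of 7 tested were called lower (median log2 fold change -0.68), with Tnfrsf19 at 0 in DKO, while 4 of 10 enterocyte genes were called higher (median log2 fold change 0.53). Of the enteroendocrine genes 5 of 8 were called lower (median log2 fold change -0.60), at 339 to 345 against 224 to 239 CPM. The size of the Tff3 fall rested on the control line, since DKO overlapped C57BL/6 organoids: against the mean of both control lines it was -0.69 (adjusted p = 1.09e-08), and that of Spink4 -0.95 (adjusted p = 1.56e-10), both still called in edgeR. The Agr2 call is close to the fold cutoff: it was lost without VillinCreERT2 replicate 2 (-0.53), DKO replicate 1 (-0.58) or DKO replicate 3 (-0.56), with at least 10 counts in every library or only these groups fitted (-0.58 in each), and against both control lines (-0.54). Zg16 passed without VillinCreERT2 replicate 1 (-0.61) or replicate 3 (-0.59).

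Whether the double loss exceeded the sum of the single losses was tested as 1 contrast over the 5 lines, in which 19.6% of all genes were called. Of the mucus genes Spink4 alone passed, with DKO lower than the sum by 0.65 on the log2 scale (SE 0.11, adjusted p = 4.95e-05), and it did not without DKO replicate 3 (-0.54). For Agr2 the excess was -0.39 (adjusted p = 0.00182), below the fold required. Muc2, Zg16, Tff3, Fcgbp, Clca1 and St3gal4 lay between -0.12 and 0.04, each within its standard error of 0. In the same contrast 7 of 10 Paneth genes (median -1.35) and 7 of 7 tuft genes (median -1.89) were called lower, and 8 of 10 enterocyte genes higher (median 0.89). Of the stem genes 4 of 7 were called lower and 1 higher, and of the enteroendocrine genes 1 of 8 lower. VillinCreERT2 organoids cancel from this contrast, which sets DKO against CDK8KO beside CDK19KO against C57BL/6, so differences between those 4 lines enter it.

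**Figure D1:**
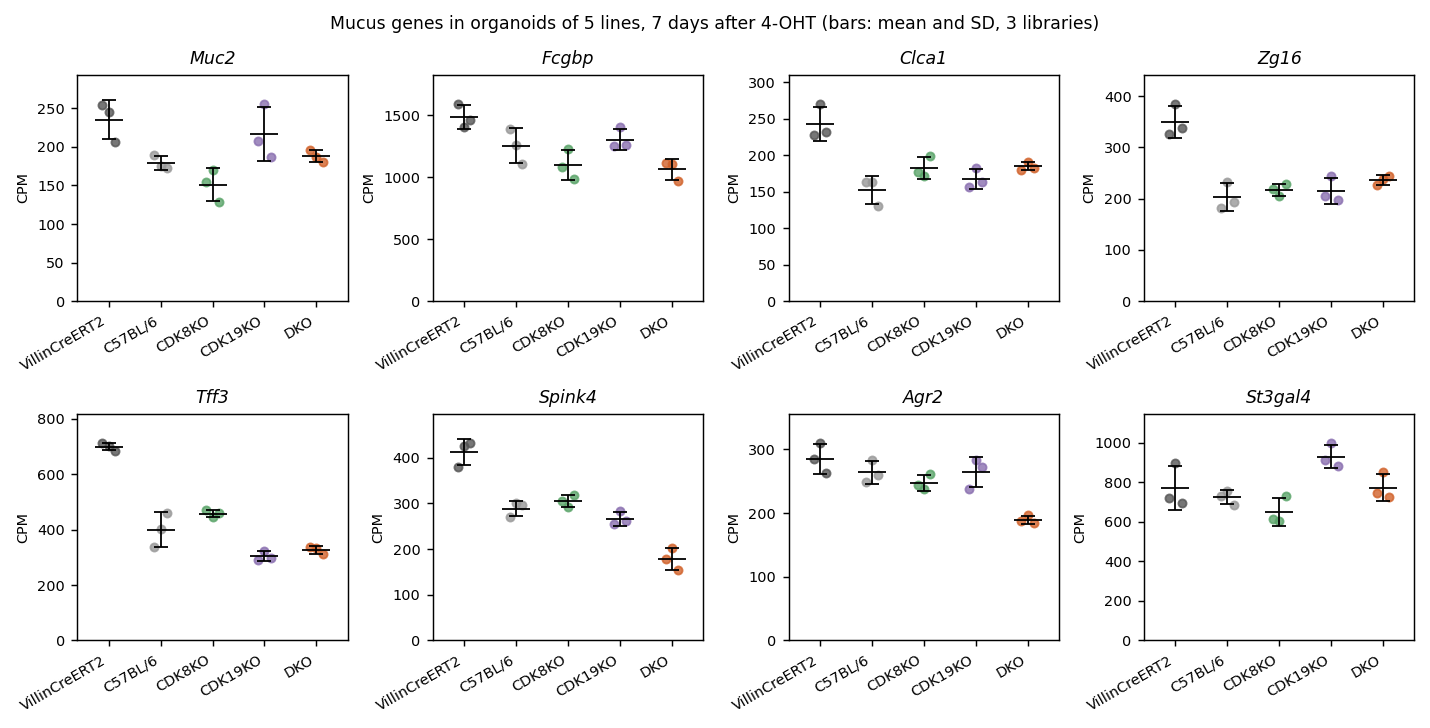
Levels of 8 mucus genes (CPM, linear axes from 0) in organoids of 5 lines 7 days after 4-OHT; points are libraries and bars are the mean and SD of 3. Spink4, Tff3 and Agr2 are lowest or among the lowest in DKO, and the 2 control lines differ in Tff3, Zg16 and Clca1.

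The EtOH arm of the time course gave the mucus gene levels by day of collection. Days in culture and any difference in harvest or processing between the days cannot be told apart. Fcgbp rose between days 3 and 5, from 939, 1239.6 and 1159 to 1716, 2247 and 1940.1 CPM (log2 fold change of 0.82, SE 0.11, adjusted p = 9.98e-06), and was at 2014, 1849.7 and 2089.8 CPM on day 10. Zg16 stood at 89.5, 68.3 and 75.5 CPM on day 3 and 155, 158 and 161 CPM on day 10, a 2.03-fold rise (log2 fold change of 1.02, SE 0.12, adjusted p = 2.23e-07). From day 3 to 5, 12% of all genes were called and 1 of 8 mucus genes. From day 3 to 10, 38.4% of all genes were called, and the mucus genes Fcgbp (0.83) and Zg16. Between days 5 and 7 no mucus gene was called in edgeR (2 with an unadjusted p under 0.05, 0 in DESeq2) where 0.57% of genes were, and between days 7 and 10 none (5 with an unadjusted p under 0.05, 0 in DESeq2) where 23.3% were. Spink4 had a log2 fold change of -0.56 over that last interval and passed without EtOH day 7 replicate 1 (-0.61) or 2 (-0.71), or without EtOH day 10 replicate 2 (-0.62) or 3 (-0.68). From day 3 to 10 Spink4 had -0.55 and passed without EtOH day 10 replicate 2 (-0.61) or 3 (-0.66), while Zg16 passed between days 3 and 5 without EtOH day 3 replicate 1 (0.65) or EtOH day 5 replicate 1 (0.62). With at least 10 counts in every library Spink4 passed over both intervals (-0.61 and -0.64). EtOH day 7 replicate 2 stood apart in mesenchyme genes, which summed to 1.11, 36.6 and 1.27 CPM in the 3 libraries, with Lum at 0 in each. Other cell types moved with days too: 6 of 10 enterocyte genes were called higher from day 3 to 5 (median log2 fold change 0.73) and 5 lower from day 7 to 10. By day 10, 6 of 6 tuft genes were called lower than on day 3 (median -1.91), and the Paneth sum was 3923 to 4557 CPM on day 3 and 8388 to 8634 CPM on day 10, with 1 gene called higher and 2 lower. Atoh1 fell from 31.7, 33.8 and 32.3 to 19.2, 19.2 and 18.1 CPM over days 7 to 10 (by 0.79 on the log2 scale).

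On day 3, St3gal4 and Zg16 were the mucus genes that fell, where 12.4% of all genes were called. St3gal4 had 601, 515 and 585 CPM in EtOH and 203, 249 and 218 CPM in 4-OHT, 2.54-fold lower (log2 fold change of -1.34, SE 0.08, adjusted p = 2.24e-13). Zg16 had 89.5, 68.3 and 75.5 and 34, 42.4 and 31.3 CPM, 2.17-fold lower (log2 fold change of -1.12, SE 0.13, adjusted p = 6.02e-07). The EtOH and 4-OHT libraries did not overlap for either gene, whereas those of Muc2, Fcgbp, Clca1, Tff3 and Spink4 did. The other 6 genes had log2 fold changes between -0.27 for Muc2 and 0.04 for Tff3. On the same day 7 of 10 enterocyte genes were called lower (median log2 fold change -1.24), and their sum was 5982 to 6471 against 2726 to 3223 CPM. Of the Paneth genes 3 and of the stem genes 4 were called higher, and 3 of 6 tuft genes lower.

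On day 5 Spink4 and Fcgbp fell. Spink4 had 657, 664 and 793 CPM in EtOH and 402, 398 and 346 CPM in 4-OHT (log2 fold change of -0.88, SE 0.16, adjusted p = 0.000296). Fcgbp had 1716, 2247 and 1940.1 and 980.4, 1048 and 874 CPM, 2.03-fold lower (log2 fold change of -1.02, SE 0.11, adjusted p = 4.16e-07). These were 2 of 8, against 13.2% of all genes, and the median of the 8 was -0.33. St3gal4 was at 634, 662 and 559 and 627, 619.7 and 543 CPM, overlapping, and Zg16 had -0.50 and passed without EtOH day 5 replicate 1 (-0.59). Atoh1 was 1.72-fold lower in 4-OHT, at 34.9, 32.1 and 35.4 against 20.5, 20.1 and 19.1 CPM (log2 fold change of -0.78, SE 0.07, adjusted p = 3.97e-09). Paneth genes moved alongside, where 8 of 10 genes were called lower (median log2 fold change -1.06) and summed to 5230.0 to 6357 against 2739 to 3085 CPM. Of the tuft genes 4 of 6 and of the stem genes 4 of 8 were called lower, with Dclk1 at 0 in 4-OHT and Il25 in both arms.

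On day 7, Agr2 fell and St3gal4 rose, both close to the fold cutoff, where 18.3% of all genes were called. Agr2 had 265, 232 and 254 CPM in EtOH and 148, 158 and 187 CPM in 4-OHT (log2 fold change of -0.61, SE 0.09, adjusted p = 3.99e-06). St3gal4 had 501, 558 and 484 and 811, 802 and 709.8 CPM (log2 fold change of 0.59, SE 0.08, adjusted p = 6.07e-07). St3gal4 lost its call without EtOH day 7 replicate 1 (0.56) or 3 (0.55), without 4-OHT day 7 replicate 1 (0.55) or 2 (0.55), and when genes needed at least 10 counts in every library (0.57). Agr2 lost its call without EtOH day 7 replicate 1 (-0.58) or 4-OHT day 7 replicate 1 (-0.55). Spink4 (-0.55) passed without EtOH day 7 replicate 1 (-0.59) or 2 (-0.70) or 4-OHT day 7 replicate 3 (-0.62), and Zg16 (-0.49) without 4-OHT day 7 replicate 1 (-0.66). Fcgbp stood at 1579, 1904 and 1828 CPM in EtOH and 1235, 1541 and 1250.3 CPM in 4-OHT, with no overlap but below the fold required (log2 fold change of -0.40, SE 0.11, adjusted p = 0.00591). Muc2 overlapped between the arms, at 245, 227 and 187 CPM in EtOH and 275, 278 and 227 CPM in 4-OHT. Beside these, 9 of 10 Paneth genes were called lower (median log2 fold change -1.30), 6 of 6 tuft genes and 5 of 8 stem genes were too, with Dclk1 at 0 in 4-OHT and Il25 in both arms, and 4 of 10 enterocyte genes were called higher.

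On day 10, Fcgbp and Spink4 fell and St3gal4 rose, 3 of 8 against 15.8% of all genes, with a median of -0.50 over the 8 and 0.02 over all genes. Fcgbp had 2014, 1849.7 and 2089.8 CPM in EtOH and 960.1, 769 and 788 CPM in 4-OHT, 2.37-fold lower (log2 fold change of -1.24, SE 0.12, adjusted p = 8.02e-09). Spink4 had 326, 471 and 499.7 and 178, 244 and 212 CPM (log2 fold change of -1.03, SE 0.16, adjusted p = 3.94e-05). St3gal4 had 594, 593 and 621 and 994, 1038 and 964 CPM, 1.66-fold higher (log2 fold change of 0.73, SE 0.08, adjusted p = 1.58e-08). None of the 3 overlapped between the arms. Muc2 was at 284, 192 and 197 and 197, 129 and 125 CPM (log2 fold change of -0.57, SE 0.21, adjusted p = 0.0359), and 4-OHT replicate 1 stood above EtOH replicates 2 and 3. It fell short of the fold required and passed without EtOH day 10 replicate 2 (-0.67) or 3 (-0.66) or 4-OHT day 10 replicate 1 (-0.82), and Agr2 (-0.54) passed without 4-OHT day 10 replicate 2 (-0.62). Atoh1 was at 19.2, 19.2 and 18.1 and 8.53, 8.65 and 8.15 CPM (log2 fold change of -1.16, SE 0.08, adjusted p = 4.71e-12) and Spdef fell by 0.84 on the log2 scale. The sum of the 10 Paneth cell genes listed moved alongside, at 8388 to 8634 CPM in EtOH and 2229.6 to 2649.9 CPM in 4-OHT on day 10, with 9 of 10 called lower. So were 6 of 6 tuft and 6 of 8 stem genes, with Dclk1 and Il25 at 0 in 4-OHT, and 6 of 10 enterocyte genes were called higher.

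Changes of the response between days were tested as differences of differences. From day 3 to day 5, 4 of 8 genes passed where 20.2% of all genes did: the response of Spink4 (-0.93) and Fcgbp (-0.96) became lower and that of St3gal4 (1.29) and Zg16 (0.61) higher. From day 3 to day 10 the same 4 passed where 26.3% of all genes did, with St3gal4 moving by 2.07 (SE 0.11, adjusted p = 1.29e-14). Over both of these intervals the response of every listed Paneth gene was called lower, from day 3 to 5 by 0.85 (Nupr1) to 2.79 (Pla2g2a). All stem genes but Smoc2 were called lower too, and the enterocyte genes that were called were higher. From day 7 to day 10, where 6.41% of genes passed, the response of Fcgbp became lower (-0.84) and that of Zg16 higher (0.64). The Zg16 call from day 3 to 5 was lost without EtOH day 3 replicate 1 (0.48), EtOH day 5 replicate 1 (0.51), 4-OHT day 3 replicate 1 (0.57) or 3 (0.50), or 4-OHT day 5 replicate 2 (0.57). From day 7 to 10 it was lost without EtOH day 7 replicate 1 (0.55) or 4-OHT day 7 replicate 2 (0.57). Over that interval Muc2 (-0.82, adjusted p = 0.0702, and called by DESeq2 at -0.83, adjusted p = 0.037) and Clca1 (-0.53) passed without 4-OHT day 10 replicate 1 (-1.06 and -0.64), Clca1 also without EtOH day 7 replicate 2 (-0.61), and Spink4 (-0.48) without EtOH day 7 replicate 3 (-0.67) or EtOH day 10 replicate 1 (-0.65).

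**Figure D2:**
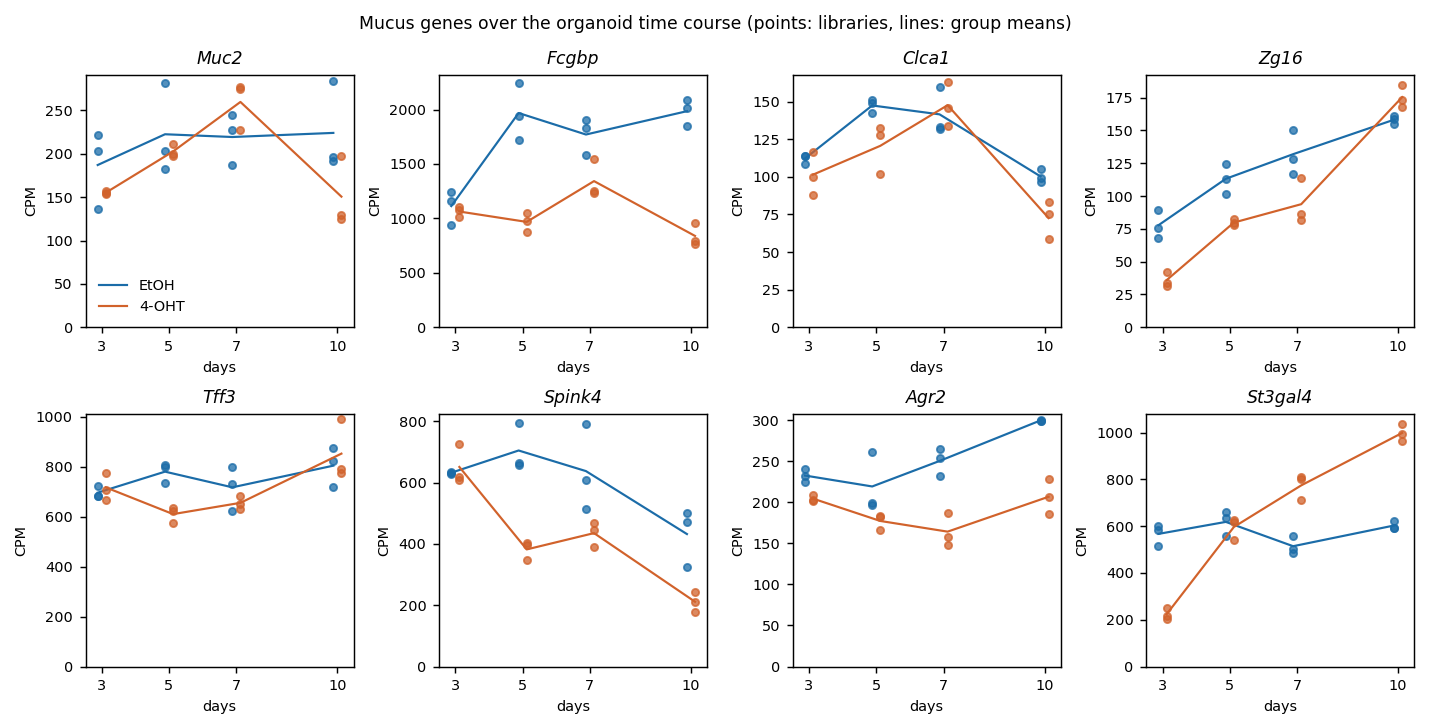
Levels of 8 mucus genes (CPM, linear axes from 0) against days of culture in EtOH (blue) and 4-OHT (orange); points are libraries and lines join group means. St3gal4 is below EtOH on day 3 and above it on days 7 and 10, while Fcgbp and Spink4 were called lower in 4-OHT on days 5 and 10 and not on day 7.

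Over the 8 time course group means, the mucus genes did not share 1 pattern. The highest Pearson correlations of log2 CPM were between Zg16 and St3gal4 (0.82) and between Muc2 and Clca1 (0.82), and the lowest was between Spink4 and St3gal4 (-0.65). The points share 1 line and 1 table, and the values are a description. Among 10484 protein-coding genes searched, those most like Muc2 were Smg1 (0.94), Ago2 (0.93), Pdzd8 (0.92), Fkbp15 (0.91) and Sec16a (0.91). Those most like the mean of the standardised mucus genes, Retnlb left out, were Irf8 (0.97), Slc38a10 (0.94), Galnt10 (0.93), Slc2a2 (0.93) and Stt3a (0.92). These are the highest of 10484 values over 8 points, and whether they exceed what unrelated genes reach was not tested.

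In Wnt3-CM, 4 of 8 mucus genes fell with 4-OHT, where 16.9% of all genes were called, and the median of the 8 was -0.62 against 0.00 over all genes. Spink4 had 341, 442 and 462 CPM in EtOH and 166, 168 and 207 CPM in 4-OHT, 2.3-fold lower (log2 fold change of -1.20, SE 0.13, adjusted p = 5.24e-05). Clca1 had 250.1, 354 and 296 and 158, 157 and 162 CPM (log2 fold change of -0.92, SE 0.10, adjusted p = 5.55e-06), Fcgbp had 1148, 1382 and 1264 and 708, 788 and 622 CPM (log2 fold change of -0.84, SE 0.09, adjusted p = 1.77e-07), and Agr2 had 204, 266 and 256 and 144, 147 and 166 CPM (log2 fold change of -0.67, SE 0.09, adjusted p = 1.61e-05). The arms did not overlap in any of the 4. Muc2 was also separate, at 328, 369 and 334 and 236, 228 and 231 CPM (log2 fold change of -0.57, SE 0.07, adjusted p = 4.15e-07), just under the fold required, and it passed without EtOH replicate 1 (-0.60) or 3 (-0.59). St3gal4 overlapped (1028, 1095 and 1077 against 1103, 1071 and 1080.2 CPM), as did Zg16. Atoh1 and Spdef fell by 0.82 and 0.88 on the log2 scale. In the same libraries 10 of 10 Paneth genes were called lower (median log2 fold change -1.75), at 7133 to 7898 against 1956 to 2412 CPM in sum. Of the tuft genes 7 of 7 tested were called lower (median log2 fold change -3.50), at 25.4 to 30.2 against 2.58 to 3.15 CPM with Il25 at 0 in 4-OHT, while 7 of 10 enterocyte genes were called higher (median log2 fold change 1.74), at 7278 to 8967 against 8783 to 9191 CPM in sum. Of the stem genes 2 of 8 and of the general epithelial genes 2 of 7 were called lower.

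Retnlb had 0 reads in the 3 EtOH libraries in Wnt3-CM and 45 reads in the 4-OHT libraries (0.447, 1.07 and 0.677 CPM), at least 14.3-fold higher against a floor of 3 reads over the group. It was too low to enter the test there, and the difference is therefore a value without a test. Set beside standard medium at day 10, the 4-OHT response in Wnt3-CM differed in 1 mucus gene, St3gal4 (lower by 0.70 on the log2 scale, SE 0.08, adjusted p = 2.69e-06), where 13.3% of all genes passed. Below the fold required, the response of Tff3 differed by -0.45 (adjusted p = 0.013), of Fcgbp by 0.40 (adjusted p = 0.0335) and of Clca1 by -0.45 (adjusted p = 0.0702). That of Muc2 differed by 0.00 (SE 0.27), of Spink4 by -0.17 (SE 0.26), of Agr2 by -0.13 and of Zg16 by 0.07, and differences smaller than their errors were not detectable. In the same contrast 5 of 8 stem and 7 of 10 enterocyte genes were called higher, and 3 of 7 general epithelial genes, 1 Paneth and 1 tuft gene lower. Both media used the same genotype but separate count tables, so medium and batch cannot be told apart.

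In the organoids assigned to Cdk19 ko/D173A, a genotype in which a kinase-dead CDK19 remains after Cdk8 deletion, the mucus genes moved in both directions. Zg16 rose from 268, 251 and 249.6 CPM in EtOH to 643, 626 and 686 CPM in 4-OHT, 2.54-fold higher (log2 fold change of 1.35, SE 0.06, adjusted p = 6.27e-07). Clca1 rose from 282, 342 and 322 to 618, 585 and 559 CPM (log2 fold change of 0.90, SE 0.08, adjusted p = 3.02e-05). Spink4 fell from 374, 359 and 389.7 to 147, 209.7 and 234 CPM (log2 fold change of -0.93, SE 0.16, adjusted p = 0.00497), and Agr2 from 281, 263 and 264 to 168, 170.1 and 194 CPM (log2 fold change of -0.60, SE 0.07, adjusted p = 0.000221). These were 4 of 8, against 12.3% of all genes, with no overlap between arms. Fcgbp (-0.57) passed without EtOH replicate 2 (-0.62) or 4-OHT replicate 1 (-0.74), and Agr2 did not without 4-OHT replicate 1 (-0.56) or 2 (-0.57). Muc2 overlapped between the arms (676, 496 and 508 against 566, 452 and 391 CPM), Tff3 had -0.48 (adjusted p = 0.00792) and St3gal4 0.34 (adjusted p = 0.0524). Spdef fell by 0.67 on the log2 scale, and Atoh1 had -0.22 (adjusted p = 0.188).

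The 4-OHT response of the kinase-dead line was higher than that of the Cdk19 ko/ko line at day 7 in Zg16, by 1.84 (SE 0.16, adjusted p = 4.18e-06), and in Clca1, by 0.83 (SE 0.13, adjusted p = 0.000478), on the log2 scale. Of all genes 11.1% passed this test. The response of Agr2 differed by 0.00 (SE 0.12), and that of Spink4 differed by -0.38 (adjusted p = 0.314). The lines also differ in sex-linked transcripts (Xist at 375 to 652 CPM in the kinase-dead line and at most 0.515 CPM in the other at day 7) and in count table, so allele, line, sex and batch cannot be told apart. The 10 enterocyte genes listed summed to 15489 to 16281 CPM in EtOH and 21858 to 25165 CPM in 4-OHT in the kinase-dead line, with 6 of 10 called higher. Of the Paneth genes 7 of 10 were called lower and 1 higher there, at 3655 to 3901 against 1879 to 2234 CPM in sum. Of the tuft genes 7 of 7 and of the stem genes 5 of 7 were called lower, with Il25 at 0 in 4-OHT. Of the enteroendocrine genes 4 of 8 were called lower and 2 higher, and their sum was 748 to 809.6 against 326 to 344 CPM.

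**Figure D3:**
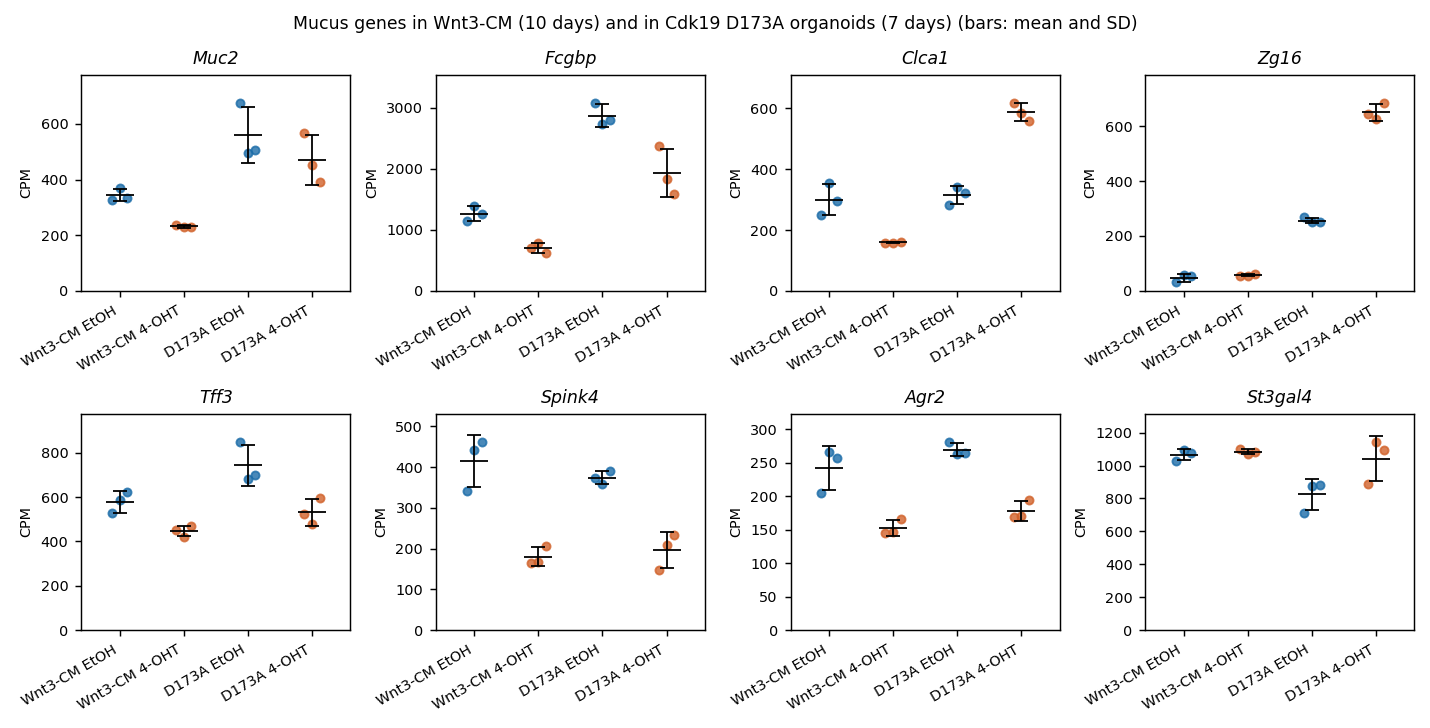
Levels of 8 mucus genes (CPM, linear axes from 0) with EtOH (blue) and 4-OHT (orange), in Wnt3-CM at 10 days and in Cdk19 ko/D173A organoids at 7 days; points are libraries and bars the mean and SD of 3. Zg16 and Clca1 rise with 4-OHT in the kinase-dead line, and Spink4 and Agr2 fall in both settings.

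In IECs taken directly from mice, 4 mucus genes fell in DKO against VillinCreERT2, where 1.5% of all genes were called. Fcgbp had 6119, 8046 and 6650.4 CPM in VillinCreERT2 and 2187, 2287 and 2142 CPM in DKO, 3.15-fold lower (log2 fold change of -1.65, SE 0.14, adjusted p = 0.0111). St3gal4 had 1838, 1735 and 1778 and 708, 701 and 706 CPM, 2.53-fold lower (log2 fold change of -1.34, SE 0.09, adjusted p = 0.00946). Spink4 had 244, 238 and 248 and 102, 77.1 and 130.4 CPM (log2 fold change of -1.24, SE 0.18, adjusted p = 0.0361), and Muc2 had 965, 857 and 812 and 409.6, 526 and 329 CPM (log2 fold change of -1.06, SE 0.18, adjusted p = 0.0453). In each of the 4 the genotypes did not overlap. Agr2 was separate as well, at 210.1, 179.7 and 232 and 142, 108 and 119 CPM, with an adjusted p of 0.0596. Clca1 and Tff3 had log2 fold changes of -0.62 and -0.60 (adjusted p = 0.245 and 0.309), also with no overlap, and Zg16 overlapped between the genotypes. In DKO, replicate 2 was the lowest of the 3 for Zg16 (2433, 1069 and 1596 CPM), Clca1 (1623, 892 and 1534 CPM) and Tff3 (592, 262 and 499 CPM). Retnlb was at 5.56, 2.02 and 14.3 CPM in DKO and overlapped (log2 fold change of 1.01, SE 0.70, adjusted p = 0.453), and its difference was 0.06 without DKO replicate 3. Over the 9 genes the median was -0.75, against 0.00 over all genes tested. Paneth genes moved with them, as 5 of 10 genes were called lower (median log2 fold change -1.82) and the sum was 7075, 4326 and 5254 CPM in VillinCreERT2 and 1203, 2379.6 and 1221 CPM in DKO. DKO replicate 2, the lowest in Zg16, Clca1 and Tff3, was thus the highest of its group in Paneth genes. Of the tuft genes 2 of 7 tested were called lower (median log2 fold change -1.57), and all 7 had negative values, with a sum of 154 to 219 against 38 to 77.5 CPM. Of the stem genes 2 of 8 tested were called lower (median log2 fold change -0.98).

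The IEC calls depended on single libraries, over all genes as well as in the mucus genes. With all libraries 228 genes were called. With a block for replicate number in edgeR, 8 genes were called in all and no mucus gene. The log2 fold changes there were -1.64 for Fcgbp, -1.34 for St3gal4, -1.27 for Spink4 and -1.08 for Muc2 (adjusted p from 0.0601 to 0.0964). Without DKO replicate 2, which expressed Ddx3y, 4 mucus genes passed and 572 genes in all. Without VillinCreERT2 replicate 1 none did in edgeR, with log2 fold changes of -1.74 for Fcgbp, -1.32 for St3gal4, -1.23 for Spink4 and -0.99 for Muc2 and adjusted p from 0.0591 to 0.18, and 5 genes were called in all. Without VillinCreERT2 replicate 3 none did (-1.68, -1.33, -1.21 and -1.11, adjusted p from 0.0879 to 0.178; 3 genes in all), and without DKO replicate 1 Fcgbp and St3gal4 did (42 in all). Without DKO replicate 3 Muc2 did not (-0.91; 31 in all), and without VillinCreERT2 replicate 2 Agr2 also did (-0.83; 1566 in all). DESeq2 called 5, with Agr2 added (-0.75, adjusted p = 8.69e-05), where it called 859 genes in all. In edgeR Agr2 also passed with at least 10 counts in every library (-0.72, adjusted p = 0.0468). Without a filter on low counts, where 1103 genes were called, Agr2 (-0.79, adjusted p = 5.91e-05) and Clca1 (-0.66, adjusted p = 0.0455) did in edgeR. IECs also held RNA of other cells. The 9 immune genes listed summed to 1643 to 2969 CPM in VillinCreERT2 and 1790.4 to 2871 CPM in DKO, ranges that overlap, and the plasma cell transcript Igkc was at 10.1 to 117 and 299 to 527 CPM. Gene by gene, however, 8 of the 9 were higher in DKO, with a median log2 fold change of 1.46: edgeR called 0 (5 with an unadjusted p under 0.05) and DESeq2 4. The 7 mesenchyme genes summed to 12.9, 893 and 56 CPM in the VillinCreERT2 libraries and 979, 606 and 462 CPM in the DKO libraries, so VillinCreERT2 replicate 2 stood with DKO. All 7 were higher in DKO (median 1.23), and edgeR called 0 (0 with an unadjusted p under 0.05), as did DESeq2. The epithelial marker Epcam was at 1535 to 1612 and 1099 to 1381 CPM. The part of these in the result was not tested.

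**Figure D4:**
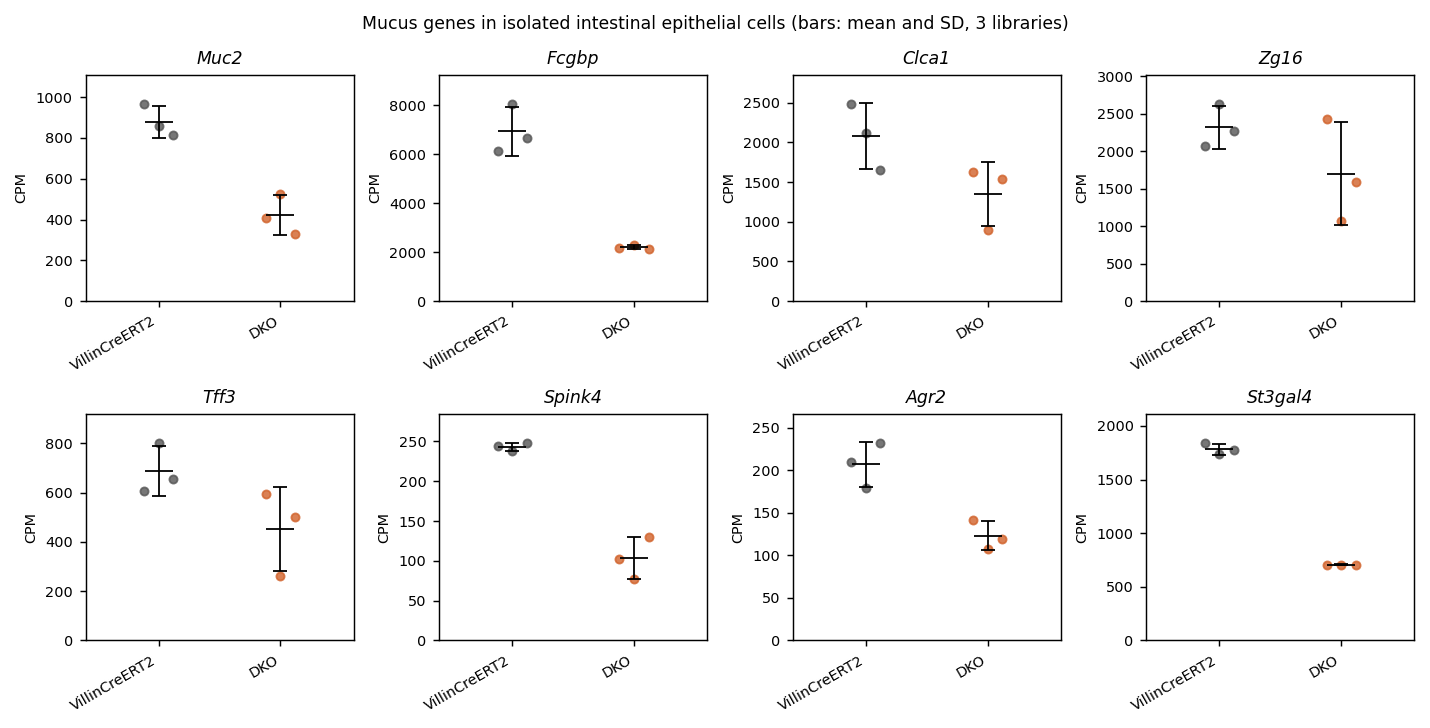
Levels of 8 mucus genes (CPM, linear axes from 0) in IECs of VillinCreERT2 and DKO mice 14 days after tamoxifen; points are libraries and bars the mean and SD of 3. Of the 8 genes Zg16 overlaps between genotypes and the other 7 do not, and the share of all genes without overlap was not counted.

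Set side by side over the 10 comparisons of a knockout or 4-OHT group with its control, Spink4 was called lower in 6, the most of the 9 genes, and never higher. Fcgbp and Agr2 were called lower in 4 each, and neither was called higher. Muc2 was lower in 2 (CDK8KO organoids and DKO IECs) and Tff3 in 2 (CDK8KO and DKO organoids). St3gal4 was called lower in 2 and higher in 2, Zg16 lower in 2 and higher in 1, and Clca1 lower in 1 and higher in 1. Atoh1 was called lower in 5 and Spdef in 4. Several of these comparisons share control samples or a line, so they are not independent repeats. Some calls counted here were lost in fits with 1 library left out, as given above. These were Agr2 in DKO organoids, on day 7 and in the kinase-dead line, Muc2 in CDK8KO organoids, St3gal4 on day 7 and those in IECs. The St3gal4 log2 fold changes differed in sign: -1.34 in DKO IECs and -1.34 on day 3 of the time course, but 0.73 on day 10 and 0.00 in the DKO organoid line.

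**Figure D5:**
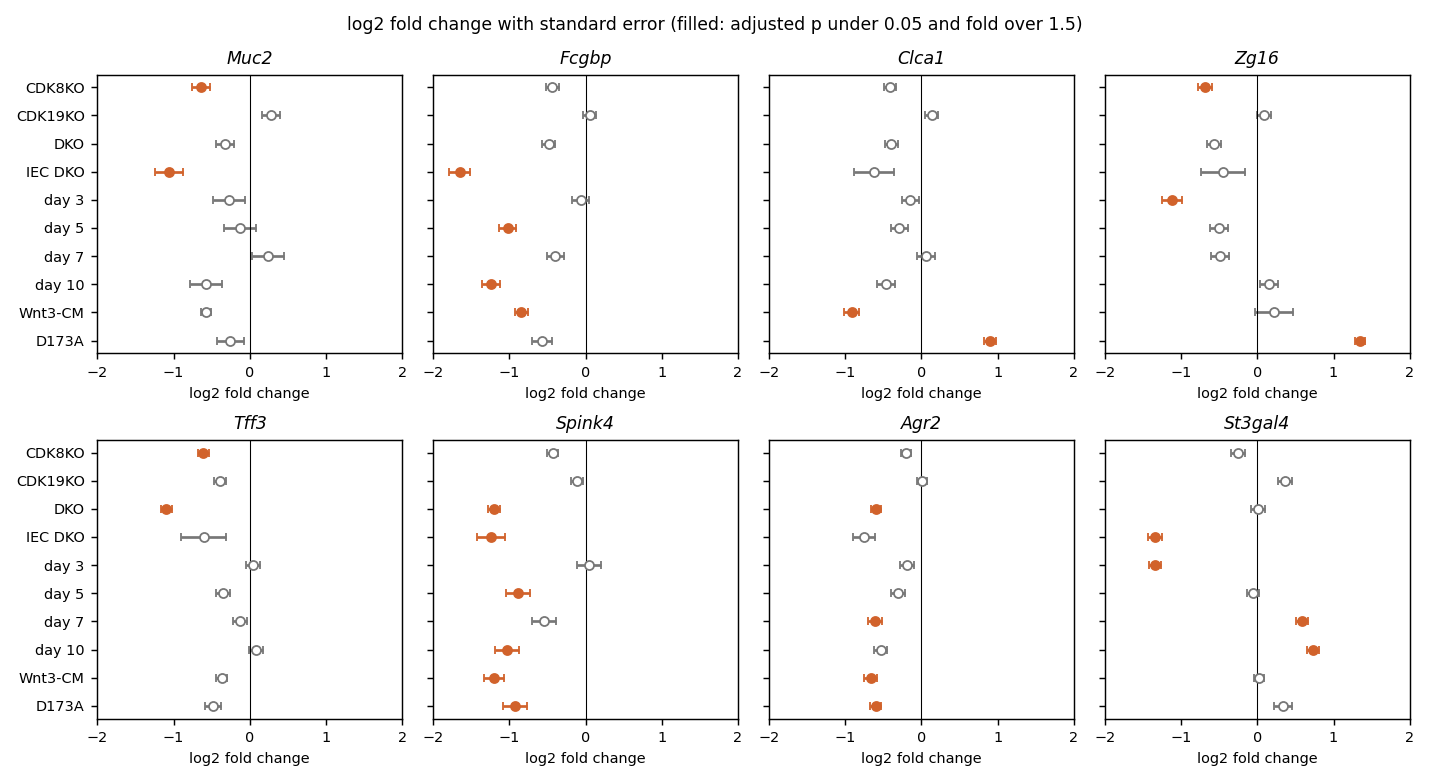
log2 fold change (x axis, with its standard error) of 8 mucus genes in 10 comparisons of a knockout or 4-OHT group with its control, 1 per row; filled points passed the adjusted p of 0.05 and the fold of 1.5. Spink4 is filled to the left of 0 in 6 rows, and Zg16, Clca1 and St3gal4 have filled points on both sides.

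Other genes of the goblet cell program were taken from lists, chosen with results of these data known, and counted in the same fits. The share of all genes called was 7.23% in CDK8KO organoids, 5.25% in CDK19KO, 19.4% in DKO, 1.5% in IECs, 12.4%, 13.2%, 18.3% and 15.8% on days 3, 5, 7 and 10, 16.9% in Wnt3-CM and 12.3% in the kinase-dead line, and the counts below are read against it. Of the 10 transcription factor genes listed, 7 fell in DKO organoids (Foxa3 by 1.14, Creb3l1 by 1.09 and Spdef by 0.85 on the log2 scale), 3 on day 5, 4 on day 7 and 6 on day 10 (there Atoh1 by 1.16, Creb3l1 by 1.03 and Gfi1 by 0.89), 5 in Wnt3-CM and 4 in the kinase-dead line, and none rose in these. Day 3 went the other way, with 2 higher (Foxa1 by 0.94 and Foxa2 by 0.59) and none lower. In CDK8KO organoids 1 fell (Klf4, which was also -0.99 in C57BL/6 against VillinCreERT2), in CDK19KO organoids 1 (Foxa2) and in IECs 2 (Creb3l4 and Foxa3).

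Of the enzymes and transporters of O-glycan synthesis, which dress MUC2, 22 were tested. The number called was 1 in CDK8KO, 2 in CDK19KO and 2 in DKO organoids, 1 in IECs (Fut2, higher by 1.53), 5, 5, 4 and 4 on days 3, 5, 7 and 10, 5 in Wnt3-CM and 2 in the kinase-dead line. On day 10 the sialyltransferase gene St3gal1 fell by 1.54. The median over these 22 lay between -0.12 and 0.16 in the 10 comparisons.

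Among other mucins and mucus-associated genes, 4 of 12 tested rose and 1 fell in DKO organoids. The largest change was in Clca4a (-4.75), followed by the membrane mucin genes Muc4 (2.01) and Muc20 (1.44), as log2 fold changes. All 3 also differed between the control lines, by -3.82, 2.33 and 1.97 in C57BL/6 against VillinCreERT2, and Muc20 was not called in DKO against the mean of both (0.45, adjusted p = 0.358 in edgeR). On day 7, 8 of 15 rose and 3 fell, led by Muc1 (3.57), Tff2 (1.99) and Clca4a (-1.68). Higher and lower calls numbered 2 and 3 in CDK8KO organoids, 1 and 1 in CDK19KO organoids, 2 and 1 on day 3, 6 and 2 on day 5, 6 and 3 on day 10, 3 and 2 in Wnt3-CM and 1 and 3 in the kinase-dead line. In IECs none of 11 tested was called in edgeR (5 with an unadjusted p under 0.05), and DESeq2 called 3. Of 28 further goblet cell genes tested, lower and higher calls numbered 2 and 0 in CDK8KO, 0 and 2 in CDK19KO and 8 and 1 in DKO organoids, 4 and 4 on day 3, 4 and 1 on day 5, 6 and 3 on day 7, 7 and 3 on day 10, 5 and 4 in Wnt3-CM, 3 and 1 in the kinase-dead line and 5 and 0 in IECs.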

How the data were processed

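PolyA RNA of 57 mouse libraries, sequenced as 100 bp paired ends, was analysed from gene counts. The authors' deposited tables hold raw read counts, made with STAR 2.5.2 and featureCounts (Subread 1.6.3) on mm10 per the submitters' processing notes; the annotation and strand setting are not given in the sources used here. Counts were fitted with edgeR 4.0.16 in R 4.3.3 (TMM, filterByExpr, robust quasi-likelihood F test, Benjamini-Hochberg over all genes tested). All groups of the organoid line, time course and IEC tables were in 1 fit each. The Wnt3-CM and kinase-dead organoids of the fourth table were in separate fits. Responses compared across tables were in joint fits of both. The fits were also run on counts simulated from the same model, which cannot show how well that model suits these libraries. A gene was called at an adjusted p under 0.05 and a fold over 1.5. Standard errors were the log2 fold change over the root of F. Alternatives were DESeq2 1.42.0, other filters, size factors, controls, a replicate block and leaving out each library. The members and gene lists were chosen with earlier results of these data known. Named genes were the 9 members, Atoh1 and Spdef, and in the other lists up to 3 called genes with the largest change. Deviations of same-numbered libraries correlated at -0.144 to 0.181 in the organoid lines, -0.394 to 0.218 in IECs and -0.283 to 0.416 in the time course. Their means were 0.016, -0.111 and 0.038, against -0.008, 0.064 and -0.019 for other pairs. Numbers were not used as pairs in the main fits. A further 6 IEC columns that could not be tied to a group were left out.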

Additional observations from a re-analysis of the deposited data

Results flagged for a closer look

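Differences between responses that passed their own test are listed here as values, and the shares over all genes and the confounds given above hold for them. The calls of Spink4 in the organoid lines and of Zg16 from day 3 to 5 and day 7 to 10 were lost in fits with 1 library left out. In the time course, the 4-OHT response changed from day 3 to day 5 in Spink4 (-0.93), Fcgbp (-0.96), St3gal4 (1.29) and Zg16 (0.61), all as log2 differences. From day 7 to day 10 it changed in Fcgbp (-0.84) and Zg16 (0.64). From day 3 to day 10 it changed in Spink4 (-1.07), Fcgbp (-1.18), St3gal4 (2.07) and Zg16 (1.26).

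In the organoid lines the double knockout was below the sum of the single knockouts in Spink4 (-0.65). The 4-OHT response in Wnt3-CM was below that in standard medium in St3gal4 (-0.70). The response of the kinase-dead line was above that of the Cdk19 ko/ko line in Zg16 (1.84) and Clca1 (0.83).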

How the results depend on the processing

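Of 169 values each, 169 kept their side of the cutoffs with DESeq2 size factors, 167 without a filter, 164 with at least 10 counts in every library and 167 in DESeq2. With 1 library left out, 1240 of 1302 did. Among these, values past the cutoffs in neither fit changed sign in 2, 2, 3, 2 and 50 cases in that order, and no called mucus gene turned direction. Against the mean of both control lines CDK8KO had 0 and CDK19KO 1 mucus gene called, where 1263 and 801 of all genes were. Muc4 in CDK8KO (-0.015, adjusted p = 0.929) and Guca2a in CDK19KO (-0.085, adjusted p = 0.717) turned direction there in edgeR. With at least 10 counts day 7 had 1 and EtOH day 10 against day 7 had 1, where 2236 and 2748 of all genes were called. With 1 library left out, counts ranged from 0 to 1 for DKO minus the sum, 0 to 5 for IECs, 1 to 3 for day 7, 1 to 2 for EtOH day 5 against day 3, 0 to 1 for EtOH day 10 against day 7 and 1 to 4 for the response from day 7 to day 10. The replicate block gave 0 mucus calls in IECs (adjusted p from 0.0601 to 0.0964 in edgeR) and 8 over all genes, against 228 without it, and lost no other call of 137 values. Over all genes, calls in IECs were 1103 without a filter, 859 in DESeq2 and 3 to 1566 with 1 library left out. For the Wnt3-CM and kinase-dead organoids and the contrasts across tables, no block was fitted, since the labels give their columns no pairing. The causes were not tested. Retnlb was too sparse to enter more than 1 of the 10 comparisons.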
